A study of Nematostella vectensis with 84 samples.

Results

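The 80 genes described here stood most above both the first and the last time point, T0 and T4, at T1 in 2 recovery series of a sea anemone study. They were chosen from measured values: among 5932 gene models with a mean of 20 CPM (reads scaled to a common library size) or more, of 23510 in all, each gene's T1 mean of log2(CPM + 5) was set against the larger of its T0 and T4 means. This choosing difference was above 0 in both recovery series for 891 genes, and the 80 with the highest smaller value were kept. The choosing difference used the calcium-free KSW and cytochalasin D libraries at T0, T1 and T4. T2 and T3 of those series and every streptomycin library were not used for that difference. They did count towards the minimum of 20 CPM, since each gene's mean CPM was taken over all 84 libraries.

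The animals were adult starlet sea anemones, Nematostella vectensis, and the tissue was the oral disc with its tentacles. Per the labels, 1 series was treated with calcium-free KSW (a medium whose abbreviation is not spelled out) and sampled at T0 to T4, another with cytochalasin D and sampled at T0 to T4, and the last with streptomycin and sampled at T0 to T3. The time points of the calcium-free KSW and cytochalasin D series are hours of recovery. The streptomycin time points are lengths of exposure, each followed by 1 hour of recovery, so streptomycin T1 is an exposure and not a recovery time. Whether T0 lies before or after the trauma, and how long the exposures were, is not stated in the labels, and no untreated group was analysed here. Each of the 14 groups held 6 libraries lettered A to F. Nothing in the labels says that they came from separate animals, so SDs and p-values measure the spread between libraries, which may be technical.

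Cnidarian tentacles carry stinging cells and hair-bundle mechanoreceptors. Cytochalasin D stops actin filaments from growing, and actin fills the core of hair bundles. In vertebrates, streptomycin harms hair cells, and removing calcium breaks the fine links that join the hairs of a bundle. After injury, animal cells commonly switch on a transient wave of early genes, which later declines as repair goes on. None of the 80 gene models could be given a name or a role: the files do not pair the NVE identifiers with names, and 0 of 23510 matched the RefSeq gene table of assembly jaNemVect1.1. For the same reason the labelled tissue could not be checked against marker genes, and whether the 80 genes belong to such a wave was not tested.

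The streptomycin libraries were the shallowest, with 194043 to 354795 reads, against 272537 to 584632 for cytochalasin D and 217221 to 591692 for calcium-free KSW. A single read was worth 1.86 to 9.46 CPM. The 80 genes were mostly of low to middling abundance, with mean CPM from 20.01 to 850 and a median of 34.5, against 46.4 over the 5932 genes. Their median value was 5 reads per library in streptomycin, 9 in cytochalasin D and 8 in calcium-free KSW, and 5.68% of their streptomycin values were 0 reads. In bulk tissue, more cells of a type and more RNA per cell cannot be told apart.

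The letters carry structure that bears on every result. In earlier results of these data, libraries A and D, B and E, and C and F of a group resembled each other. Here 10 genes were either on, at 10 CPM or more in every library, or off, at 8 CPM or less, for each combination of time point and letter pair, and 0 of them belong to the 80. Every library of a combination had to agree, so a pattern shared by the treatments was part of how these genes were picked. At T1, the pattern of A and D was shared with 3 other combinations (B and E at T0, B and E at T2, and A and D at T3), making 4 in all. The patterns of T1 B and E and of T1 C and F were found at no other time point. For these letter pairs, what came with T1 and what came with the pattern cannot be told apart.

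In calcium-free KSW the 80 genes had a median choosing difference of 0.59 on the log2(CPM + 5) scale, with a range of 0.38 to 1.94. In cytochalasin D the median was also 0.59, with a range of 0.38 to 1.70. These values are the choice itself and no test was made on them. The gene ranked first was NVE7186, with a choosing difference of 1.94 in calcium-free KSW and, in the other series, 1.70, and the second was NVE16856, with 1.26 and 1.38. At the other end, NVE2339 was the last gene taken, at 0.55 and 0.38, and NVE5142 was the first left out, at 0.38 and 0.37. Nothing therefore separates the last members from the next genes of the ranking.

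Followed through time, the genes were high at T1, still partly high at T2 and near their T0 level by T3. In calcium-free KSW the median over the 80 genes of the group mean minus the T0 mean went from 0.67 at T1 to 0.25 at T2, -0.06 at T3 and then -0.18 at T4. In cytochalasin D it went from 0.79 at T1 to 0.28 at T2, 0.13 at T3 and then -0.09 at T4. The medians over the 5932 genes stayed between -0.12 and 0.03 over all of these time points. The T2 and T3 values are the ones the choice did not fix, and they share the T0 libraries with the choice.

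**Figure D1:**
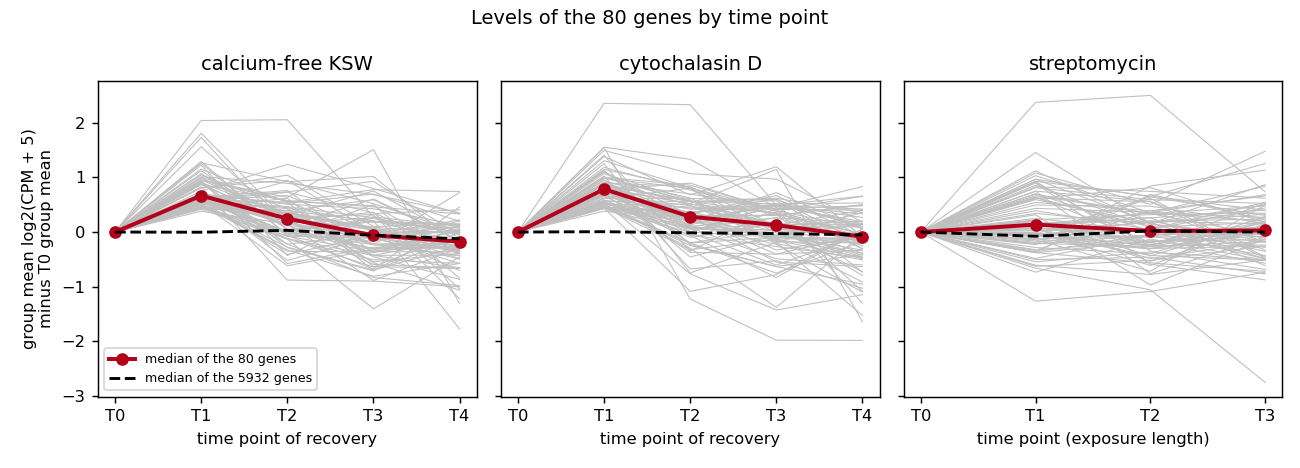
Group mean log2(CPM + 5) minus the T0 group mean (y axis) by time point (x axis) in the 3 treatments. Thin grey lines are the 80 genes, the red line is their median and the dashed line is the median of the 5932 genes that could have been chosen. Both recovery series are high at T1, where the median of the 80 genes is 0.67 and 0.79, while streptomycin T1 has a median of 0.14.

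T1 was the highest of the 5 group means for 68 of the 80 genes in calcium-free KSW, where T1 was highest for 18.6% of the 5932 genes. In cytochalasin D it was highest for 73 of the 80 genes, beside 23% of all. The choice compared T1 with T0 and T4 and left T2 and T3 free. In calcium-free KSW, 9 genes were highest at T2 and 3 at T3, and in cytochalasin D 4 were highest at T2 and 3 at T3. For 64 genes T1 was the highest mean in both series, beside 7.52% of all genes. The choice took genes with a high T1 mean, which also favours T1 over T2 and T3, so these counts are a description.

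Single libraries overlapped in nearly all of the 80 genes despite these means. In calcium-free KSW, all T1 libraries lay above all T0 libraries for 1 of the 80 genes (0.152% of the 5932). That gene was NVE8182, whose lowest T1 library was at 24.8 CPM and whose highest T0 library was at 20.3 CPM. In cytochalasin D, 3 of the 80 were separated in this way (0.506%). For T1 over T4, 8 genes were separated in the calcium-free KSW series (1.2%) and 12 in that of cytochalasin D (1.62%). The peak is thus a shift of group means over overlapping libraries, and the choice used these contrasts, so the counts are a description.

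The library medians at T1 come from libraries that the choice used and are a description. The median over the 80 genes, relative to the T0 mean, was between 0.49 and 1.14 in the 6 T1 libraries of calcium-free KSW, and between 0.47 and 0.97 in those of cytochalasin D. Libraries of other time points were high too: T0 library B stood at 0.79 in calcium-free KSW and at 0.59 in the other series, and T2 library B of cytochalasin D stood at 0.77.

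**Figure D2:**
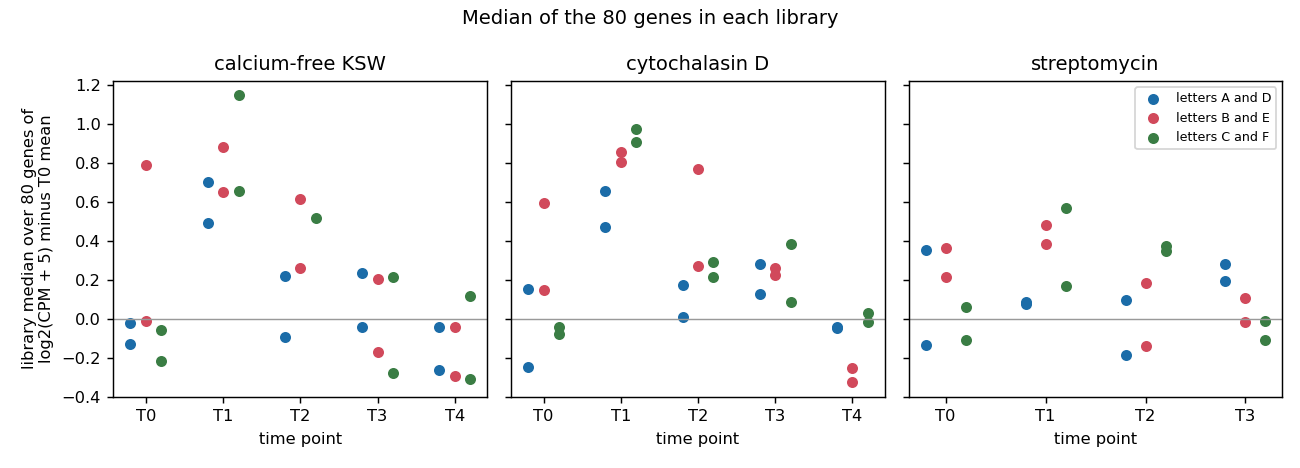
Each point is 1 library, drawn at its median over the 80 genes of log2(CPM + 5) minus the gene's T0 mean (y axis) and its time point (x axis), in the 3 treatments, with colours for the letter pairs. The T1 libraries lie at 0.07 to 0.57 in streptomycin, lower than the 0.47 to 0.97 of cytochalasin D and the 0.49 to 1.14 of calcium-free KSW.

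The gene with the strongest peak was not gradual. In calcium-free KSW, NVE7186 was at 127.4, 439.3, 194.8, 215.5, 553.4 and 276.1 CPM in T1 libraries A to F. In T0 libraries A to F it was at 153.3, 226.6, 0, 186.3, 205.1 and 6.32 CPM, and in T4 libraries A to F at 209.2, 9.76, 151.5, 227.8, 0 and 217.4 CPM. The values fall near 0, at a middle level or at a high level, and libraries A and D, B and E, and C and F take the same level. In calcium-free KSW, T1 and T2 (without library F) have no pair near 0, whereas T0, T3 and T4 each have 1 pair there.

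Cytochalasin D and streptomycin gave NVE7186 the same steps. In cytochalasin D, T1 libraries A to F were at 197.1, 467.7, 210.4, 277.3, 540.7 and 261.7 CPM, and T0 libraries C and F were both at 0. In streptomycin, T1 libraries A to F were at 217.1, 470.6, 246.8, 201.0, 313.9 and 196.1 CPM, T0 libraries A to F at 160.8, 107.0, 0, 164.6, 225.6 and 0 CPM, and T3 libraries A to F at 244.0, 513.1, 0, 201.6, 576.8 and 0 CPM. The pair near 0 is C and F at T0 and T3 in all 3 treatments. At T4, B and E averaged 4.88 CPM in calcium-free KSW and 16.9 CPM in cytochalasin D. Between streptomycin T1 and T3, the pairs A and D and B and E were at like levels, and C and F had reads at T1 and 0 at T3.

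The gene ranked second, NVE16856, varied by letter pair as well. In cytochalasin D it was at 19.7, 70.7, 138.3, 6.85, 44.2 and 116.3 CPM in T1 libraries A to F, and at 35.5, 3.51, 14.0, 36.0, 11.9 and 8.23 CPM in T0 libraries A to F. In streptomycin, T1 libraries A and D were both at 0 CPM. T1 library F was at 201.7 CPM, while C and F averaged 140.9 CPM. Its T1 level was high in B, C, E and F and low in A and D in cytochalasin D and streptomycin, and the groups overlap.

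**Figure D3:**
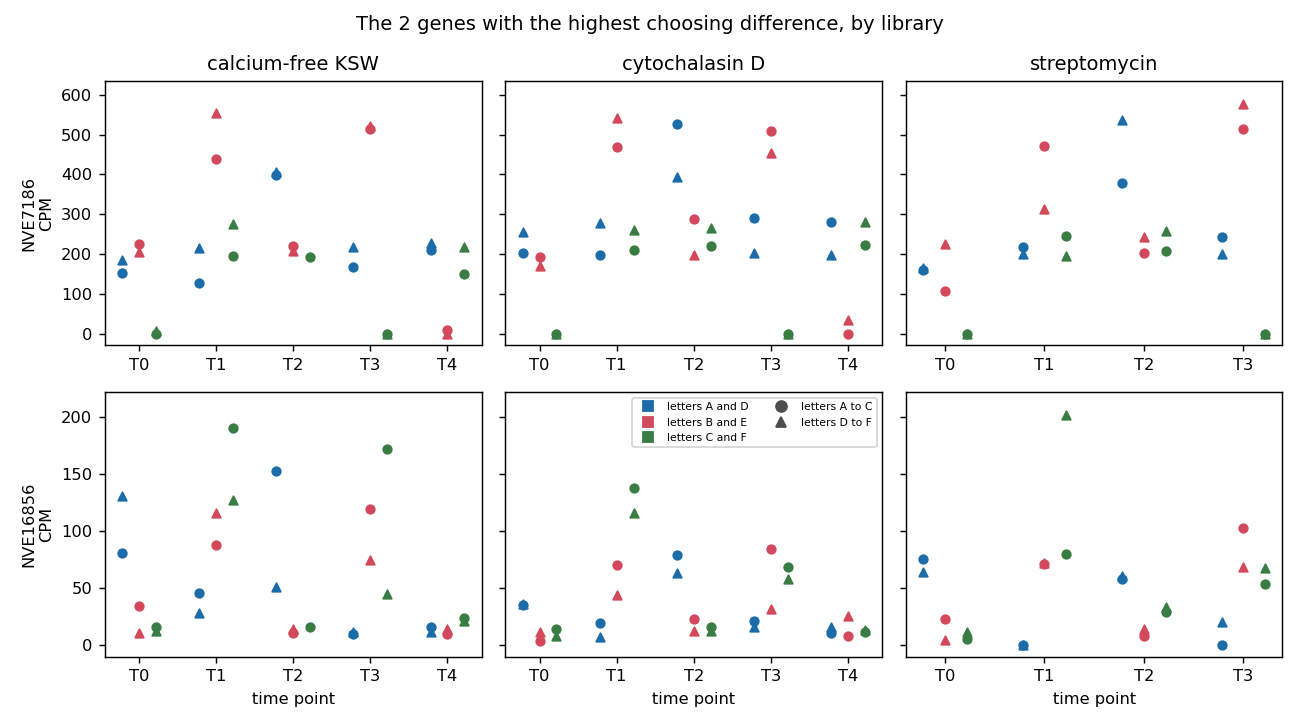
CPM (y axis) of NVE7186 and NVE16856 in every library by time point (x axis) and treatment, with colours for the letter pairs and circles and triangles for letters A to C and D to F. For NVE7186, libraries of a letter pair lie at like levels, near 0 in C and F at T0 and T3. For NVE16856 some pairs lie apart: in calcium-free KSW T2, library A is at 153.3 CPM and the next library at 50.9 CPM.

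Such letter-pair patterns were more common among the 80 genes than among the 5932. For each gene, the mean of each letter pair was taken as a deviation from its time point, and these deviations were correlated between treatments. The correlations are descriptions over 15 or 12 values that share time point and letter. Between calcium-free KSW and cytochalasin D the median correlation was 0.39 over the 80 genes and 0.15 over the 5932, and it was above 0.7 for 23 of the 80 (6.88% of the 5932). Between calcium-free KSW and streptomycin the medians were 0.59 and 0.19, with 30 of the 80 above 0.7 (9.96%). Between cytochalasin D and streptomycin they were 0.36 and 0.18, with 24 of the 80 above 0.7 (9.58%). In 19 of the 80 genes all 3 correlations were above 0.7 (3.76%). The difference from the other genes was not tested, and the choice used some of these libraries.

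**Figure D4:**
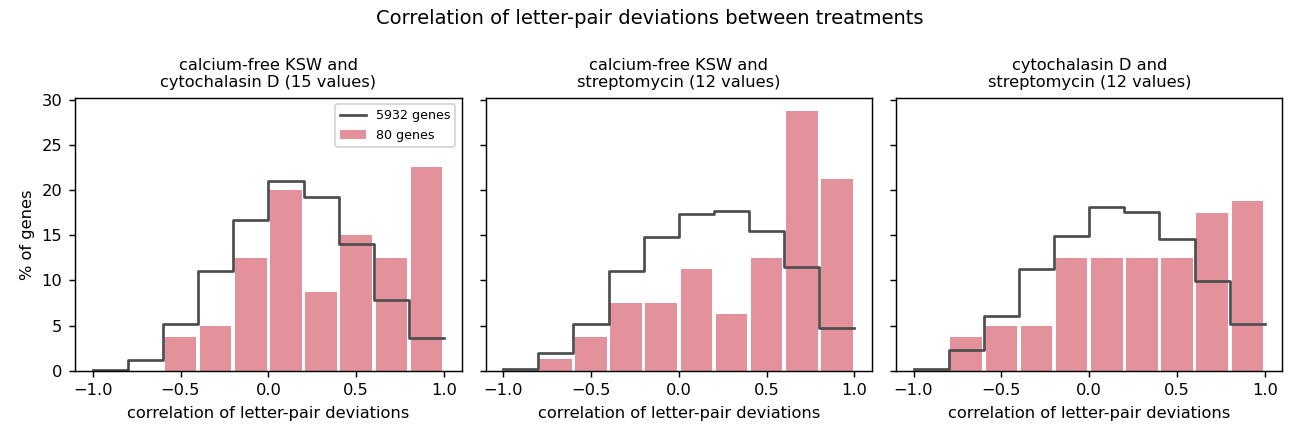
Percentage of genes (y axis) by the correlation of letter-pair deviations between treatments (x axis), for the 80 genes and the 5932 genes, in each pair of treatments. The 80 genes reach further to the right, with 23, 30 and 24 of them above 0.7.

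At T1, the same letter pair was the highest in both recovery series for 54 of the 80 genes (39.6% of the 5932) and in all 3 treatments for 23 (18.2%). Taken by treatment, C and F was the highest pair in 35 of the 80 genes in streptomycin (38.5% of the 5932), in 47 in cytochalasin D (34.6%) and in 40 in calcium-free KSW (31.6%). The streptomycin share is near that of all genes. Over all treatments and time points, 27 of the 80 genes had a letter pair at 5 CPM or less and another at 50 CPM or more. The same held for 349 of the 5932, and the low and the high pair may come from different treatments or time points. For A and D, B and E, and C and F, the median T1 value minus the larger of the T0 and T4 means was 0.55, 0.68 and 0.75 in calcium-free KSW and, in the cytochalasin D series, 0.46, 0.64 and 0.77. The T1 mean of all 3 pairs was above that level in 54 genes in calcium-free KSW (11.2% of the 5932), and in 63 genes in the cytochalasin D series (13.6%). These are values that the choice used, so nothing is read from them.

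The decline from T2 to T3, which the choice did not use, was small and was not called for any gene. In calcium-free KSW, 58 of the 80 genes had a lower mean at T3 than at T2, beside 59.3% of all genes, and the median change was -0.28 over the 80 and -0.08 over all. In cytochalasin D, 51 were lower, beside 51.1%, with medians of -0.16 and -0.01. In both series together 40 of the 80 were lower, beside 33%.

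Fitted to counts with edgeR's quasi-likelihood test over 4473 genes, T3 against T2 in calcium-free KSW called 0 genes at an adjusted p under 0.05 (0% higher and 0% lower), and thus 0 of the 62 members tested. At an unadjusted p under 0.05, 0 members were higher and 6 lower, beside 3.42% and 3.85% of all genes, and DESeq2 gave 0 adjusted calls over all genes and, unadjusted, 0 higher and 6 lower of the 80 members (1.07% and 1.14% of all genes). The members tested had a median log2 fold change of -0.19. In cytochalasin D, edgeR called 0 of 4534 genes and 0 of the 61 members tested (0% in each direction), with 0 members higher and 5 lower unadjusted, beside 2.03% and 2.93%. DESeq2 gave 0 adjusted calls there and, unadjusted, 0 higher and 4 lower of the 80 (0.699% and 1% of all genes), and the edgeR median was -0.31. Because members could enter these fits through high T1 reads, these counts are no measure of all 80.

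None of the members named for T3 against T2, all taken from those tested in edgeR, passed the test. The lowest values in calcium-free KSW were those of NVE2662, at 19.5 ± 11.96 CPM at T3 and 48.9 ± 22.6 CPM at T2 (SD, n = 6 and 5), with a log2 fold change of -1.25 (SE 0.47) and an adjusted p of 0.663 in edgeR. NVE12643 was next, with -1.18 ± 0.64 (edgeR adjusted p = 0.710), and it was also among the lowest in cytochalasin D, with -1.43 ± 0.67 (edgeR adjusted p = 0.978). Its T3 libraries A to F in cytochalasin D were at 13.01, 3.69, 21.4, 7.99, 13.6 and 5.32 CPM, and its T2 libraries at 3.76, 62.0, 51.4, 9.82, 24.3 and 12.6 CPM. The T3 and T2 libraries of this gene overlap, with T2 libraries B and C high. NVE17475 had the lowest value in cytochalasin D, at -1.77 ± 0.96 (edgeR adjusted p = 0.978).

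At the other end were 4 members with shared letter-pair deviations, whose correlations between treatments were all above 0.7. In calcium-free KSW the highest T3 against T2 values were those of NVE19270, at 0.87 ± 0.69 (edgeR adjusted p = 0.840), and NVE10181, at 0.74 ± 0.47 (edgeR adjusted p = 0.794). In cytochalasin D they were those of NVE21133, at 0.56 ± 0.57, and NVE21927, at 0.53 ± 0.33 (edgeR adjusted p = 1.00 for both). In 1 edgeR fit of all treatments, the difference between the T3 against T2 changes was called for 0 of 5273 genes, (0% in each direction), and thus for 0 of the 76 members tested. At an unadjusted p under 0.05, 0 members were higher and 2 lower, beside 2.03% and 1.48% of all genes.

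The streptomycin series asks whether the same genes were high in libraries that had no part in the choosing difference. The shift there was small. Over all 80 genes, the T1 mean minus the T0 mean had a median of 0.14, with quartiles of -0.15 and 0.63, beside -0.08 over the 5932 genes. T1 was above T0 in 47 of the 80, beside 41.9% of all genes. T1 minus T2 had a median of 0.17 beside -0.09, with 52 genes above 0 (39.9%), and T1 minus T3 a median of 0.14 beside -0.08, with 46 above 0 (42.1%). These 3 differences share the T1 libraries and are not independent of each other.

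As a peak, streptomycin T1 held for a part of the set. T1 was the highest of the 4 group means for 32 of the 80 genes (17.2% of the 5932), T3 for 22 (28.4%), T0 for 15 (29.2%) and T2 for 11 (25.2%). T1 was above both T0 and T3 in 37 genes (23.4%), of which 25 were among ranks 1 to 40 of the choice and 12 among ranks 41 to 80. Across the 80 genes, the mean choosing difference and the streptomycin T1 value minus the larger of T0 and T3 had a Spearman's rho of 0.33 and a Pearson's r of 0.42, as a description over genes that share libraries. Over the 3 treatments together T1 was highest for 28 of the 80 genes, beside 2.26% of all, a count that includes the contrasts of the choice.

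In streptomycin, libraries of T1 and of the other time points overlapped for nearly all of the genes. All T1 libraries lay above all T0 libraries for 0 of the 80 genes (0.101%), above all T2 libraries for 0 (0.152%) and above all T3 libraries for 1 (0.371%). The exception was NVE17475, singled out after its values were seen. Its streptomycin T1 libraries A to F were at 16.7, 42.8, 20.01, 40.2, 24.1 and 39.2 CPM, and its T3 libraries at 0, 0, 0, 4.03, 8.61 and 11.3 CPM. Its T0 libraries were higher still, at 75.7, 99.4, 28.3, 82.3, 29.4 and 23.0 CPM, so in streptomycin this gene was highest at T0 and not at T1.

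No member passed the test in streptomycin while genes of low counts were left out. In edgeR fits of 2862 genes, 23 of the 80 members had enough reads to be tested. T1 against T0 called 0 of the 23, while 0.0349% of all genes were called higher and 0.0699% lower. At an unadjusted p under 0.05, 5 members were higher and 0 lower (4.72% and 4.16% of all genes). T1 against T2 called 0 of the 23 (0% of all genes in each direction), with 4 members higher and 0 lower unadjusted (5.63% and 5.45%). T1 against T3 called 0 of the 23, while 0.978% of all genes were called higher and 0.28% lower, and 4 members were higher and 0 lower unadjusted (7.76% and 8.53%). The 23 tested had a median log2 fold change of 0.29 for T1 against T0 and 0.25 for T1 against T3. Since a member could enter the fit through a high T1, these medians do not stand for all 80.

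DESeq2, which tested the genes without that filter, called 0 members in streptomycin too. For T1 against T0 it gave an adjusted p to 67 members and called 0 of them (0.0165% of all genes higher and 0.0495% lower). Unadjusted, 6 of the 80 were higher and 1 lower (0.974% and 1.13%). For T1 against T2 it called 0 of 80 (0.00466% in each direction), with 6 higher and 1 lower unadjusted (1.24% and 1.18%). For T1 against T3 it gave an adjusted p to 21 members and called 0 (1.06% and 0.439%), with 10 of the 80 higher and 2 lower unadjusted (1.59% in each direction). With the filter removed in edgeR, 4 members were called higher in T1 against T0 (0.0699% of 21448 genes higher and 0.126% lower), 4 in T1 against T2 (0.135% and 0.14%) and 5 in T1 against T3 (0.21% and 0.326%), and 0 were called lower. Some of these members had been tested with the filter too. For T1 against T0, the edgeR adjusted p without and with the filter was 1.39e-06 and 0.555 for NVE7186. It was 0.036 and 0.555 for NVE16856, and 0.026 and 0.622 for NVE24065, which was called in each contrast. The calls of these genes thus depended on the fit. The other members called had not been tested with the filter.

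Among the 23 members tested in edgeR, the highest streptomycin values were again those of genes with letter-pair patterns. For T1 against T0, NVE16856 had a fold change of 1.48 on the log2 scale, with an SE of 0.71 (edgeR adjusted p = 0.555), and NVE7186 1.41 ± 0.66 (edgeR adjusted p = 0.555). NVE7186 averaged 274.2 ± 105.4 CPM at T1 and 109.7 ± 92.9 CPM at T0 (SD, n = 6). For T1 against T3, NVE24065, the highest, was at 192.1, 342.2, 727.0, 194.3, 193.1 and 425.8 CPM in T1 libraries A to F and at 124.8, 71.8, 370.4, 133.0, 38.7 and 226.1 CPM in T3 libraries, and its T1 against T3 value was 1.22 ± 0.48 (edgeR adjusted p = 0.185). In both groups C and F were the high pair, and the groups overlap in T3 libraries C and F.

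NVE23725 came closest to the threshold. In streptomycin T1 libraries A to F it was at 75.2, 99.8, 133.4, 80.4, 64.4 and 151.3 CPM, and in T3 libraries at 96.5, 30.8, 41.8, 56.4, 25.8 and 50.9 CPM. Only T3 library A overlapped with T1. The log2 fold change of this gene was 1.11 ± 0.31 (edgeR adjusted p = 0.0706), and without T3 library A it was 1.37 (edgeR adjusted p = 0.0418). Streptomycin T0 and T1 carry lower serial numbers in their titles than T3 and part of T2, so what goes with this number and what goes with the length of exposure cannot be told apart for T1 against T3. Other contrasts are tied to this number as well. In cytochalasin D it rises with the time point. The calcium-free KSW T1 numbers lie outside the range of those of T0 and of T4, and the streptomycin T0 numbers lie outside that of T1.

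The lowest values were small. For T1 against T0, NVE2190 had -0.27 ± 0.60 (edgeR adjusted p = 0.949) and NVE9434 -0.21 ± 0.30 (edgeR adjusted p = 0.877). For T1 against T3, NVE2428 had -0.58 ± 0.44 (edgeR adjusted p = 0.545) and NVE8167 -0.14 ± 0.28 (edgeR adjusted p = 0.846). For T1 against T2 the ends were NVE16856 at 1.18 ± 0.66 (edgeR adjusted p = 0.501) and NVE24065 at 1.11 ± 0.48 (edgeR adjusted p = 0.372), and NVE15160 at -0.22 ± 0.30 (edgeR adjusted p = 0.833) and NVE7186 at -0.08 ± 0.59 (edgeR adjusted p = 0.985). NVE7186 thus stood at the high end against T0 and at the low end against T2.

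The 23 genes whose letter-pair deviations correlated above 0.7 between the recovery series differed in streptomycin from the other 57, as a description. Their median T1 minus T0 was 0.75 and T1 minus T3 was 0.48, and T1 was the highest mean in 15 of the 23. The other 57 genes had medians of -0.02 and -0.01, and T1 was highest in 17. The 23 genes were also more abundant, with a median mean CPM of 56.9 against 29.9 in the other 57. Most of them were among ranks 1 to 40 of the choice. Which of letter-pair pattern, abundance and rank the difference goes with was not tested. Among all 408 genes with correlations above 0.7, T1 was highest in 97, and the medians were -0.06 and -0.07. An example chosen after its values were seen is NVE18442, at 0, 71.3, 146.7, 0, 96.6 and 145.7 CPM in streptomycin T1 libraries A to F, 6.57, 62.5, 103.7, 10.3, 81.6 and 109.0 CPM in those of cytochalasin D and 7.08, 87.9, 119.3, 0, 61.9 and 132.9 CPM in those of calcium-free KSW. In each treatment it was high in B, C, E and F and low in A and D.

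Within the 1 on-off pattern that spans several time points, the T1 excess was smaller. There, T1 libraries A and D were set against B and E at T0, B and E at T2 and A and D at T3, with 2 libraries at each time point and no test. In calcium-free KSW the median of T1 minus T0 over the 80 genes was 0.18, with 54 above 0 (52.8% of the 5932), beside 0.03 over all genes, and T1 minus T3 was 0.47 beside 0.09. In cytochalasin D these values were 0.22, with 53 above 0 (45.9%), beside -0.04, and 0.40 beside 0.02. T1 minus T2 was -0.01 in cytochalasin D, against 0.21 in calcium-free KSW. Across all libraries the medians of T1 minus T0 were 0.67 and 0.79. In both recovery series A and D was the lowest T1 pair over the 80 genes and B and E the highest T0 pair. Relative to the T0 mean, these pairs stood at 0.57 and 0.32 in calcium-free KSW and at 0.58 and 0.31 in cytochalasin D. A smaller T1 minus T0 thus follows in part from the pairs compared. The T1 and T0 libraries were among those used for the choice.

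In streptomycin, within the same pattern, the medians of the 80 genes were below those of all genes against T0 and T3, and their median against T2 was above that of all genes. T1 minus T0 had a median of -0.18, with 24 of the 80 genes above 0 (44% of the 5932), and T1 minus T3 a median of -0.20, with 30 above 0 (40%), beside -0.07 and -0.12 over all genes. T1 minus T2 had a median of 0.0056, with 40 above 0 (40.5%), beside -0.12 over all genes. T1 was the highest of the 4 combinations in 12 of the 80 genes (18.6%), against 40 (26.2%) and 26 (20.5%) in the calcium-free KSW and cytochalasin D series. In streptomycin too, B and E was the highest T0 pair over the 80 genes, at 0.21, and A and D the lowest T1 pair, at 0.08. The other letter pairs of T1 have no like pattern at another time point to be set against.

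**Figure D5:**
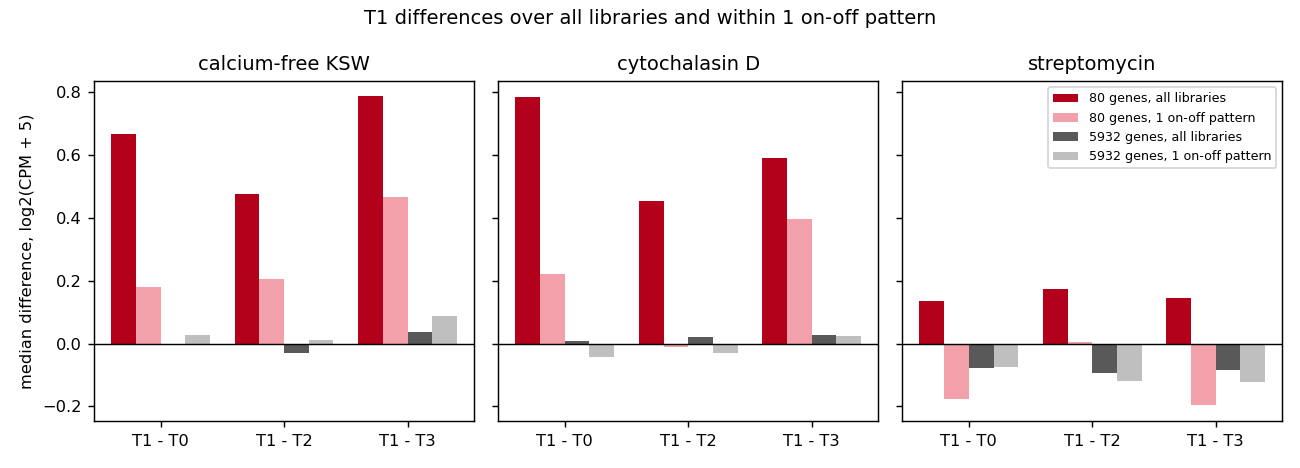
Median over genes of the T1 difference in log2(CPM + 5) (y axis) from each other time point (x axis) in the 3 treatments, over all libraries and within the on-off pattern shared by 4 combinations of time point and letter pair, for the 80 genes and the 5932 genes. In streptomycin the median of the 80 genes for T1 minus T0 is 0.14 over all libraries and -0.18 within the pattern.

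Letters A to C and D to F were also taken apart. For the recovery series this is the choosing difference itself, so its sign is largely fixed by the choice. The median T1 value minus the larger of T0 and T4 was 0.61 in A to C and 0.56 in D to F after calcium-free KSW, 0.52 and 0.66 after cytochalasin D, and 72 of the 80 genes were above 0 in both sets in each series (15% and 14.6% of the 5932). In streptomycin, with T3 in the place of T4, the medians were -0.05 and -0.12, and 24 of the 80 were above 0 in both sets (8.48% of the 5932). Since A and D, B and E, and C and F share their patterns, the sets do not repeat T1 independently.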

How the data were processed

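The authors deposited 1 table of unscaled read counts, with 23510 gene models and 84 libraries. Libraries were tag-based, per the labels' extract protocol, so that a count does not grow with gene length. Bowtie2 was used, per the submitters' processing notes; its role and version, the genome build, the annotation, the counter and the use of strand are in none of the sources used here, so reads of near-identical, overlapping or antisense genes may have been split or joined. Of the sample columns, 0 were unused and 0 pairs were identical.

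CPM were computed on library totals without the 10 genes with most reads, and log values carry a pseudocount of 5. Calcium-free KSW library T2 F was left out, as in the choice of the genes. The genes and lists were chosen with earlier results of these data known, including the pairing of the letters.

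Treatments were fitted separately, with 1 mean for each group, in edgeR 4.0.16 (R 4.3.3; filterByExpr, TMM, quasi-likelihood test, Benjamini-Hochberg adjustment over all genes tested, threshold 0.05), after the fit was tested on simulated data. DESeq2 1.42.0 was the other test. Standard errors come from the F statistic. Named genes are the first 2, the last taken and the first left out of the ranking and, per contrast, up to 2 with the highest and 2 with the lowest fold changes, called ones first. A gene's SD or SE takes the 6 libraries of a group as independent. Alternatives covered the scaling, filter, tool, replicate block, summed letter pairs, title number range, choice of genes and each library left out.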

Additional observations from a re-analysis of the deposited data

Results flagged for a closer look

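In 86 groups of values examined (the named genes in the groups of their contrasts, and the medians over the 80 genes), 6 had a single library far from the others. Chance alone gives about 1 in 20 such groups where values are independent and normally distributed. Here many values come from few reads and the groups share genes and libraries, so the 6 were not set against that rate.

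NVE2190 was at 329.2 CPM in streptomycin T0 library D, where the next library was at 113.5 and the lowest at 22.9. NVE8167 was at 51.7 CPM in streptomycin T3 library E, where the next library was at 84.7. NVE17475 was at 16.0 CPM in cytochalasin D T3 library D, where the next was at 4.53. NVE16856 was at 153.3 CPM in calcium-free KSW T2 library A, where the next was at 50.9. The median over the 80 genes relative to T0 was 0.79 in calcium-free KSW T0 library B, where the next library was at -0.01, and 0.77 in cytochalasin D T2 library B, where the next was at 0.29. Library B thus stood high over the set of genes in a group of each recovery series.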

How the results depend on the processing

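The count of members called stayed at 0 in all 5 contrasts with DESeq2, DESeq2 size factors, summed letter pairs and 1 fit of all treatments. It also stayed at 0 with the title number range as a term (the streptomycin contrasts), with calcium-free KSW library T2 F kept (T3 against T2 there) and with the other ways of choosing the genes (streptomycin T1 against T0 and T3). Without the filter on low counts it was 4, 4 and 5 in streptomycin T1 against T0, T2 and T3. Leaving out each library gave 0 in the other contrasts and 0 to 1 in T1 against T3, the 1 being NVE18442 without T1 A or T1 D and NVE23725 without T3 A. The replicate block called 0 members, with medians of 0.30 (T1 against T0) and 0.29 (T1 against T3). The letters do not pair libraries within a treatment: same-letter correlations above 0.1 numbered 1, 2, 0, 1 and 2 of 5 or 6 per contrast, and 1, 2, 1, 1 and 2 libraries correlated best with their own letter.

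The medians below cover unlike sets of members, so their differences are not those of the processing alone. The edgeR median log2 fold change for T1 against T0 was 0.29 over the 23 members tested. It was 0.61 over those tested among the first 40 genes, and 0.070 over all 80 without the filter. DESeq2 gave 0.12 over 80 members and 1 fit of all treatments 0.11 over 74. Leaving out 1 library, which also changed the members tested, gave 0.15 (without T0 F) to 0.43. For T1 against T3, 0.25 became 0.48 with the title number range as a term. Leaving out 1 library gave 0.14 (without T1 F) to 0.51 (without T3 E), with 0.41 without T3 A or T3 B. The on-off pattern gives no count of calls. Its medians, -0.18 against T0 and -0.20 against T3, are log2(CPM + 5) differences over all 80 genes. Both are 0.14 over all libraries on that scale. Of named genes, NVE2428 reversed to 0.46 with the title number range. Leaving out 1 library gave -0.50 to 0.66 for NVE2190 and -0.52 to 0.052 for NVE9434 (T1 against T0), and -0.32 to 0.16 for NVE7186 (T1 against T2). The cause was not tested. Choosing with a pseudocount of 1, a mean CPM of 50 or more or full totals kept 74, 26 and 50 of the 80 genes. The median streptomycin value of the 80 genes was 5 reads, so single values carry a large counting error.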
